A study of Mus musculus with 6 samples.

Results

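The MHC class II presentation genes examined here are 8 genes, H2-Aa, H2-Ab1, H2-Eb1, H2-DMa, H2-DMb1, Cd74, Ciita and Ctss, taken by symbol from the 32285 features counted in every library. All 8 were found, each as 1 feature. They were followed across epithelial, endothelial and immune cell classes of mouse lung, in 3 libraries from lungs infiltrated by acute myeloid leukaemia (AML 1, 2 and 3) and in 3 libraries from normal lungs (Control 1, 2 and 3).

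The leukaemia carried Trp53 R172H over a deleted allele, and the Control lungs are labelled only as normal. Every lung was digested with Liberase and DNaseI and sorted for non-haematopoietic niche cells, so the immune cells described below are those that passed that sort. In the AML libraries sorted GFP+ leukaemia cells were added back to niche cells, as 20% and 80% of the pool. The labels give no strain, age or sex. They also give no number of animals behind each group, so p-values measure the spread between these libraries alone, which may be technical.

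Libraries were made with the 10x Chromium 3' v3.1 kit, and each value counts unique molecular identifiers (UMIs), 1 per captured transcript. The deposited matrices held 39919902 to 46018541 UMIs per AML library and 19060359 to 26789176 per Control library. After filters 23745 cells were used, 4496 to 5790 per AML library and 1718 to 3673 per Control library, with a median of 3723 to 4685.5 UMIs per AML cell and 4794.5 to 8323.5 per Control cell. Cell classes were rebuilt by clustering with all class II genes left out, and named from marker genes; each class is thus only "like" the cell type it is named for. Pairs of libraries shared 1 to 20 cell barcodes, at most 0.428% of the smaller library. Control 1 stood apart by an unnamed cluster led by Scgb1a1, of whose 253 cells it held 85.0%. Control 3 held all 463 cells of a red cell cluster.

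In mm10 (GENCODE M21), 5 of the 8 genes lie on chromosome 17 between 34119541 and 34316674. These are H2-DMa at chr17:34119541-34139101, H2-DMb1 at chr17:34153072-34160230, H2-Ab1 at chr17:34257689-34269419, H2-Aa at chr17:34282744-34287823 on the minus strand and H2-Eb1 at chr17:34305867-34316674. Ciita lies at chr16:10480059-10528418, Cd74 at chr18:60803848-60812652 and Ctss at chr3:95526786-95556403.

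MHC class II molecules display peptides from the endosomal system to CD4 T cells. H2-Aa pairs with H2-Ab1, and H2-Eb1 codes for the beta chain of the second class II molecule of the mouse. Cd74, the invariant chain, guards the peptide groove until proteases such as cathepsin S (Ctss) cut it, and the H2-DM pair (H2-DMa and H2-DMb1) then exchanges its last fragment for peptide. Ciita is the coactivator that turns these genes on together. It binds no DNA itself but docks on factors that sit on the X and Y boxes of their promoters. B lymphocytes, dendritic cells and macrophages are the usual class II cells. Alveolar type 2 cells, the surfactant-making epithelium, carry class II in the resting lung, and endothelial cells acquire it under interferon gamma.

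Promoter sequence was available from RefSeq (GRCm38.p6, the assembly of mm10) for 5 of the 8 genes: H2-Aa, H2-Eb1, H2-DMa, H2-DMb1 and Ctss. The 250 bases before each start were searched on both strands for a Y box (GATTGG), an X box (AG, any 2 bases, AC, any base, GATG) and a gamma-activated site (TTCNNNGAA). The 130 bases before the start are shown for 3 members that moved together in alveolar type 2 cells and for Ctss, which did not share their levels, with matches to the X box and to GATTGG on the strand shown in capitals. H2-DMa, which fell with the 3 in these cells, is not shown. Neither of its 2 entries had a match within the 130 bases.
H2-Aa: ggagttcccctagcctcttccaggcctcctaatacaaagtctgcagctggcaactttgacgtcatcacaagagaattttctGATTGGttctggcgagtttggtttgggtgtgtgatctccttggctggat
H2-Eb1: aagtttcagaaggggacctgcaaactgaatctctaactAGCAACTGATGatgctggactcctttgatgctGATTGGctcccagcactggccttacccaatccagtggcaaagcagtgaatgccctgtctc
H2-DMb1: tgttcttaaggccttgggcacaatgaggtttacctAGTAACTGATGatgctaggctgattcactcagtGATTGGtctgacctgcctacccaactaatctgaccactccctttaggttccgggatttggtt
Ctss: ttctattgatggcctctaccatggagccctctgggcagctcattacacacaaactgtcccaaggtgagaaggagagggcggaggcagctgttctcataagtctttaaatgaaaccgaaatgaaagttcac

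The windows are chr17:34287824-34287953 on the minus strand for H2-Aa, and on the plus strand chr17:34305737-34305866 for H2-Eb1, chr17:34153061-34153190 for H2-DMb1 and chr3:95526656-95526785 for Ctss. The H2-DMb1 window ends at the RefSeq start, and GENCODE begins the gene further upstream, inside that window. In H2-Eb1 the X box began 92 and the Y box 60 bases before the start, 32 bases apart, and another Y box lay on the opposite strand 35 bases before the start. In H2-DMb1 they began 95 and 62 bases before the start, 33 apart. H2-Aa matched the Y box pattern alone, at 49 bases, and Ctss matched none of the 3 patterns. Of 2 H2-DMa entries 1 matched the Y box at 199 bases and the other no pattern. A Y box stood in 14.6% of 32851 mouse promoters, an X box in 0.816% and a gamma-activated site in 7.02%. An X box followed by a Y box on the same strand with starts 10 to 40 bases apart stood in 3 promoters (0.00913%), those of H2-Eb1, H2-DMb1 and H2-Eb2. That distance window was chosen after the spacing in the members was seen. No match overlapped another in these genes. A match is a description of letters and not of binding, and a box spelled otherwise is missed by these patterns.

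Alveolar type 2 cells carried less class II message in AML lungs than in Control lungs, across chains, chaperones and coactivator alike. Of the 8 genes 7 had enough UMIs to be tested, and all 7 fell, by 1.76-fold (H2-DMb1) to 4.98-fold (Ciita). The class was 1 cluster of 1231 cells, 222, 220 and 345 in AML 1, 2 and 3 and 104, 170 and 170 in Control 1, 2 and 3. All 10 alveolar type 2 markers, surfactant genes among them, were detected in it. The marker list summed to 279535 to 296348 CPM (counts per 1000000 UMIs of the class in a library, scaled for composition by TMM) in AML and 183866 to 276101 CPM in Control libraries. The test, edgeR's quasi-likelihood test on UMIs summed per library with Benjamini-Hochberg adjustment over the 9910 genes tested in the class, called 2.26% of all genes lower in AML and 4.29% in either direction.

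The level of Cd74, the invariant chain, was 1762, 1065 and 1175 CPM in AML 1, 2 and 3 and 2454, 3388 and 3744 CPM in Control 1, 2 and 3. The groups did not overlap, and AML 1 was the AML library nearest to the Controls. Mean levels were 1334 ± 375 CPM in AML and 3195 ± 666 CPM in Control (SD, n = 3 each), a log2 change of -1.26 ± 0.27 with an adjusted p of 0.0129 by edgeR. Errors of log2 changes are standard errors throughout.

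The chains followed. H2-Aa measured 552, 281 and 354 CPM in AML 1, 2 and 3 and 678, 935 and 1131 CPM in Control 1, 2 and 3. Its log2 change was -1.21 ± 0.27 (edgeR adjusted p = 0.0144), again with AML 1 the highest of the AML libraries and Control 1 the lowest Control. H2-Ab1, the partner of H2-Aa, measured 347, 171 and 205 CPM in AML and 450, 620 and 839 CPM in Control, a log2 change of -1.40 ± 0.28 (edgeR adjusted p = 0.00950). H2-Eb1 measured 228, 130 and 144 CPM in AML and 266, 377 and 511 CPM in Control, a log2 change of -1.20 ± 0.25 (edgeR adjusted p = 0.0133). For all 3 chains the highest AML library lay below the lowest Control library.

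The peptide exchange pair had the smallest changes of the 7 genes. H2-DMa measured 42.8, 24.6 and 32.3 CPM in AML and 45.7, 63.7 and 90.6 CPM in Control, and fell by 0.998 on the log2 scale (SE 0.24, edgeR adjusted p = 0.0325). H2-DMb1 measured 62.0, 39.2 and 43.3 CPM in AML and 67.3, 80.9 and 106 CPM in Control, and fell by 0.81 (SE 0.20, edgeR adjusted p = 0.0271). AML 1 and Control 1 lay close to each other for both genes, without crossing.

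Ciita, the coactivator, had the largest fold of the 7. It measured 4.79, 1.58 and 3.59 CPM in AML 1, 2 and 3 and 17.9, 10.6 and 23.2 CPM in Control 1, 2 and 3, from 14, 4 and 14 UMIs in AML and 58, 37 and 69 UMIs in Control. The log2 change was -2.32 ± 0.35 (edgeR adjusted p = 0.00135). Ctss, the protease, was close to absent: 3, 0 and 1 UMIs in AML, and 0 in each Control library, where 3 UMIs would have been 0.861 to 1.01 CPM. It was not tested there.

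The 7 tested genes all had every AML library below every Control library, which held for 12.6% of the 9910 genes tested. Their median log2 change was -1.21, against -0.00 over all tested genes. How firmly the calls stand depended on single libraries: with 1 library left out the test called all 7 without AML 1, 6 without Control 1 or Control 2, 2 without Control 3, and Ciita alone without AML 2 or AML 3. With the Scgb1a1 cluster added to the class Ciita alone was called, although the log2 changes moved little (Cd74 -1.21, H2-Aa -1.16 and H2-Ab1 -1.36) and the other 6 genes had edgeR adjusted p of 0.0577 to 0.115. With a profile of all haematopoietic free RNA subtracted Ciita alone was called too, and Cd74 had a log2 change of -0.75 (edgeR adjusted p = 0.0876). That subtraction took 18.9 to 40.3% of all UMIs of the class in AML and 0.440 to 0.729% in Control libraries, but 2.21 to 2.37% of the Cd74 UMIs in AML and 0.363 to 1.28% in Control, and it moved the median log2 change of all genes to -0.21. Of the profile, 94.3 to 98.1% came from blood progenitors in AML libraries. The subtraction was scaled by B lymphocyte, T or NK and macrophage marker UMIs. Cd79b and Cd68 made up 56.6, 98.5 and 83.7% of these UMIs in AML 1, 2 and 3. In Control 1, 2 and 3 they made up 89.4, 94.6 and 85.4%. Whether these UMIs were free RNA was not tested.

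**Figure D1:**
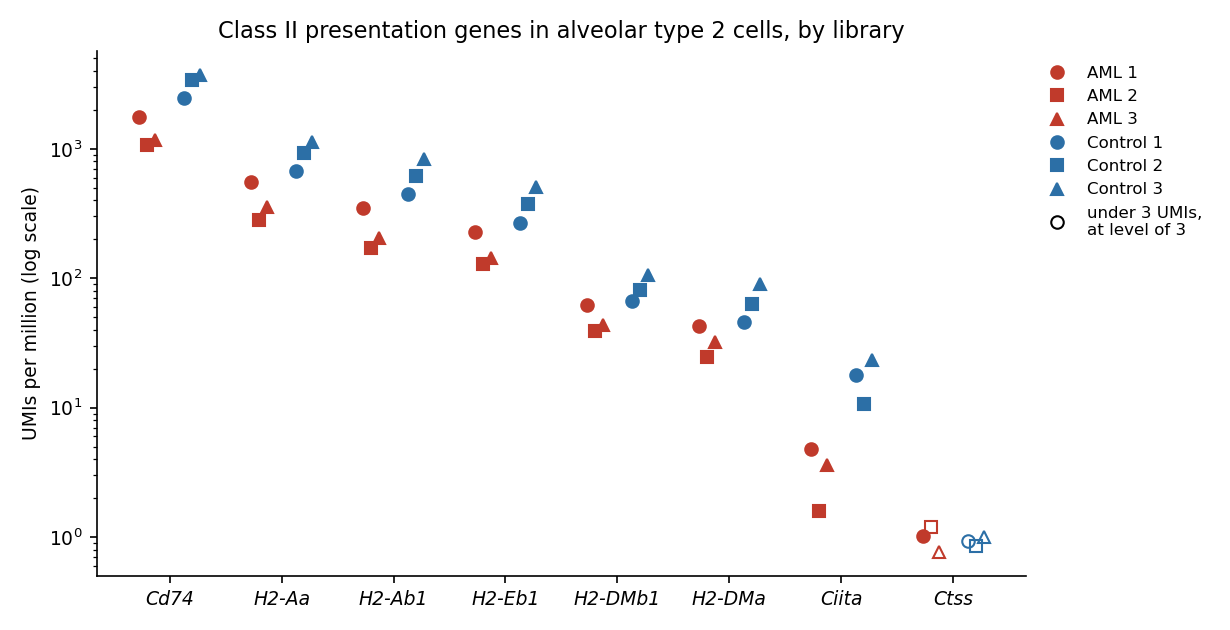
Level of each of the 8 genes in alveolar type 2 cells (CPM, log axis), 1 point per library, AML in red left of Control in blue; open points mark fewer than 3 UMIs and stand at the level of 3. The 3 AML libraries lie below the 3 Control libraries for the 7 tested genes, from Cd74 (1065 to 1762 against 2454 to 3744 CPM) to Ciita (1.58 to 4.79 against 10.6 to 23.2 CPM), and Ctss is at the floor in both groups.

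The lower sums were seen over the cells and not in a few of them. Among alveolar type 2 cells with at least 5000 UMIs, 205 to 326 per AML library and 99 to 166 per Control library, the median cell had 15.3, 7.79 and 8.60 Cd74 UMIs per 10000 in AML 1, 2 and 3, and 29.4, 31.1 and 34.7 in Control 1, 2 and 3. The 90th percentile of AML 2 and AML 3 cells (22.8 and 22.5 UMIs per 10000) lay below the median cell of every Control library. Cells without any Cd74 UMI made up 0.463, 6.83 and 7.98% in AML 1, 2 and 3 and 0% in each Control library, where a count of 0 allows up to 1.81 to 3.03%, counting error only.

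H2-Aa in the median cell was 4.90, 1.86 and 2.22 UMIs per 10000 in AML 1, 2 and 3, and 8.15, 8.42 and 10.9 in Control 1, 2 and 3. H2-Ab1 was 2.38, 0.986 and 1.21 in AML and 4.78, 5.0 and 7.33 in Control. Within a library cells with more Cd74 tended to have more H2-Aa: Spearman's rho over cells, which share a library and a range of depth, was 0.674 to 0.755 in AML and 0.761 to 0.825 in Control libraries. Cd74 and Ciita had a rho of -0.0567 to 0.180 in AML and 0.146 to 0.182 in Control, where most cells held no Ciita UMI.

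Depth differed between the groups, with a median of 11934 to 13671.5 UMIs per alveolar type 2 cell in AML and 18076 to 28409.5 in Control libraries. After thinning every cell to 2000 UMIs, which left out 5 AML and 6 Control cells, 76.5 ± 10.0% of cells in AML and 97.8 ± 1.32% in Control held a Cd74 UMI (SD, n = 3 each), a difference of -21.4 percentage points. Without thinning the shares were 93.9% and 100%. For H2-Aa the thinned shares were 43.5 ± 11.4% in AML and 78.6 ± 4.88% in Control, and for H2-Ab1 31.2 ± 9.07% in AML and 65.3 ± 7.61% in Control. Alveolar fibroblasts had low class II, with a mean Cd74 of 25.9 CPM over the 6 libraries. After the same thinning 0.256 to 1.05% of their AML cells and 1.92 to 6.60% of their Control cells held a Cd74 UMI. The share in fibroblasts was thus lower in AML too. Their median depth was 3328 to 4138 UMIs in AML and 6401 to 9208 in Control.

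**Figure D2:**
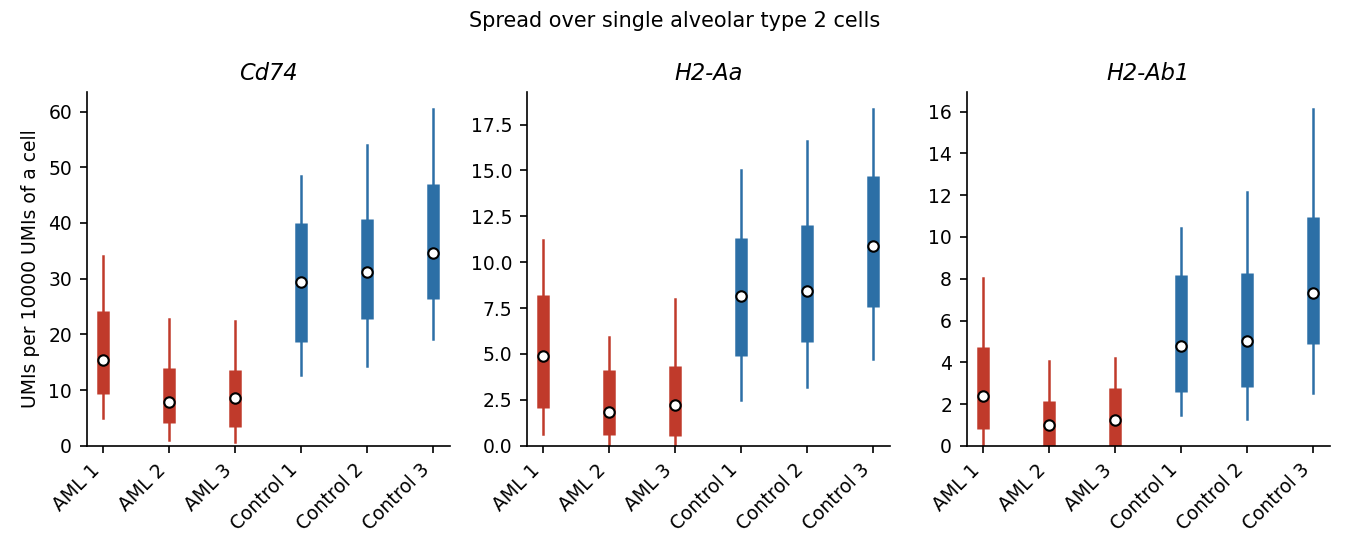
Cd74, H2-Aa and H2-Ab1 in single alveolar type 2 cells with at least 5000 UMIs (UMIs per 10000 UMIs of the cell), AML libraries left of Control libraries; the circle is the median cell, the bar spans the 25th to 75th percentile and the line the 10th to 90th. Median cells of the AML libraries (7.79 to 15.3 for Cd74) lie below those of the Control libraries (29.4 to 34.7).

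Markers of immune cells that carry class II were at low levels in this class. The B lymphocyte list, 8 of 8 with a UMI, summed to 39.2 to 58.9 CPM in AML and 15.4 to 24.5 CPM in Control libraries, higher where class II was lower. Dendritic markers summed to 2.40 to 3.57 CPM in AML and 1.43 to 4.36 CPM in Control, with Flt3, Xcr1, Cd209a, Ccr7 and Siglech at 0. Of the macrophage markers Adgre1, Mrc1, Marco, F13a1 and Ccr2 were at 0, while the list as a whole (28649 to 38545 CPM in AML and 22986 to 28240 CPM in Control) was carried by genes that alveolar type 2 cells express themselves, such as Lyz2. Free RNA of B lymphocytes, scaled by the B cell marker UMIs, came to at most 2.20% of the Cd74 UMIs and 10.8% of the Ciita UMIs of the class in any library (AML 1). The scaling rested on 77, 0 and 26 marker UMIs in AML 1, 2 and 3 and on 0, 1 and 1 in Control 1, 2 and 3. With this free RNA subtracted edgeR again called all 7 genes. The subtraction took UMIs almost only from AML libraries, so it could hardly have made a fall in AML smaller.

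No gene of the lists that work beside class II was called in these cells. None of 9 tested lysosomal processing genes, 8 class II promoter factors, 8 interferon gamma signalling genes, 3 turnover genes, 2 co-stimulation genes and 10 class I presentation genes passed the threshold of edgeR, while 2, 3, 2, 0, 0 and 1 of them, in that order, had an unadjusted p under 0.05. Over all 9910 genes tested in the class, 2023 had an unadjusted p under 0.05 by edgeR. DESeq2 was read for the 8 class II genes alone. The promoter factor nearest to the threshold, singled out after its value was seen, was Nfya, a subunit of the factor that binds the Y box, at 9.40 ± 0.61 CPM in AML and 16.1 ± 2.30 CPM in Control (log2 change -0.79 ± 0.23, edgeR adjusted p = 0.0523). Among proteases it was, chosen likewise, Ctsh at 1987 ± 499 CPM in AML and 1133 ± 243 CPM in Control (log2 change 0.81 ± 0.26, edgeR adjusted p = 0.0777). The median log2 change of the class I list was -0.34, with 8 of 10 genes below 0.

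Among the remaining class II genes, H2-DMb2 and H2-Eb2 were at the edge of detection in alveolar type 2 cells, with 1, 0 and 0 UMIs of H2-DMb2 in AML 1, 2 and 3 and 5, 8 and 9 in Control 1, 2 and 3. H2-Eb2 had 0 UMIs in each AML library, where 3 UMIs would have been 0.769 to 1.19 CPM, and 6, 7 and 8 in Control 1, 2 and 3. H2-Ob, a chain of the H2-DO inhibitor of peptide exchange, had no UMI in this class in any library.

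Levels differed widely between cell classes. Over 13 classes with at least 10 cells in all 6 libraries, counting the general capillary pool in place of the named class it contains, Cd74 was highest in the monocyte or macrophage class and next in alveolar type 2 cells, followed by the pool, described below, and this order of mean levels held for H2-Aa, H2-Ab1 and H2-Eb1. Neighbours in these orders overlapped over their 6 libraries, except that Cd74 in alveolar type 2 cells (lowest 1065 CPM) lay above the pool (highest 569 CPM). For Ctss the monocyte or macrophage class (lowest 977 CPM) lay above T or NK lymphocytes (highest 94.4 CPM). B lymphocytes, measured in 5 libraries because Control 1 held only 8, had the highest Cd74 of all classes at 9041 to 10952 CPM in AML and 9109 to 12870 CPM in Control. Blood progenitors, the class that holds the added leukaemia cells (603 to 1135 cells per AML library and 0 to 10 per Control library), had almost none, with 4.09 to 8.68 CPM of Cd74 in AML libraries.

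**Figure D3:**
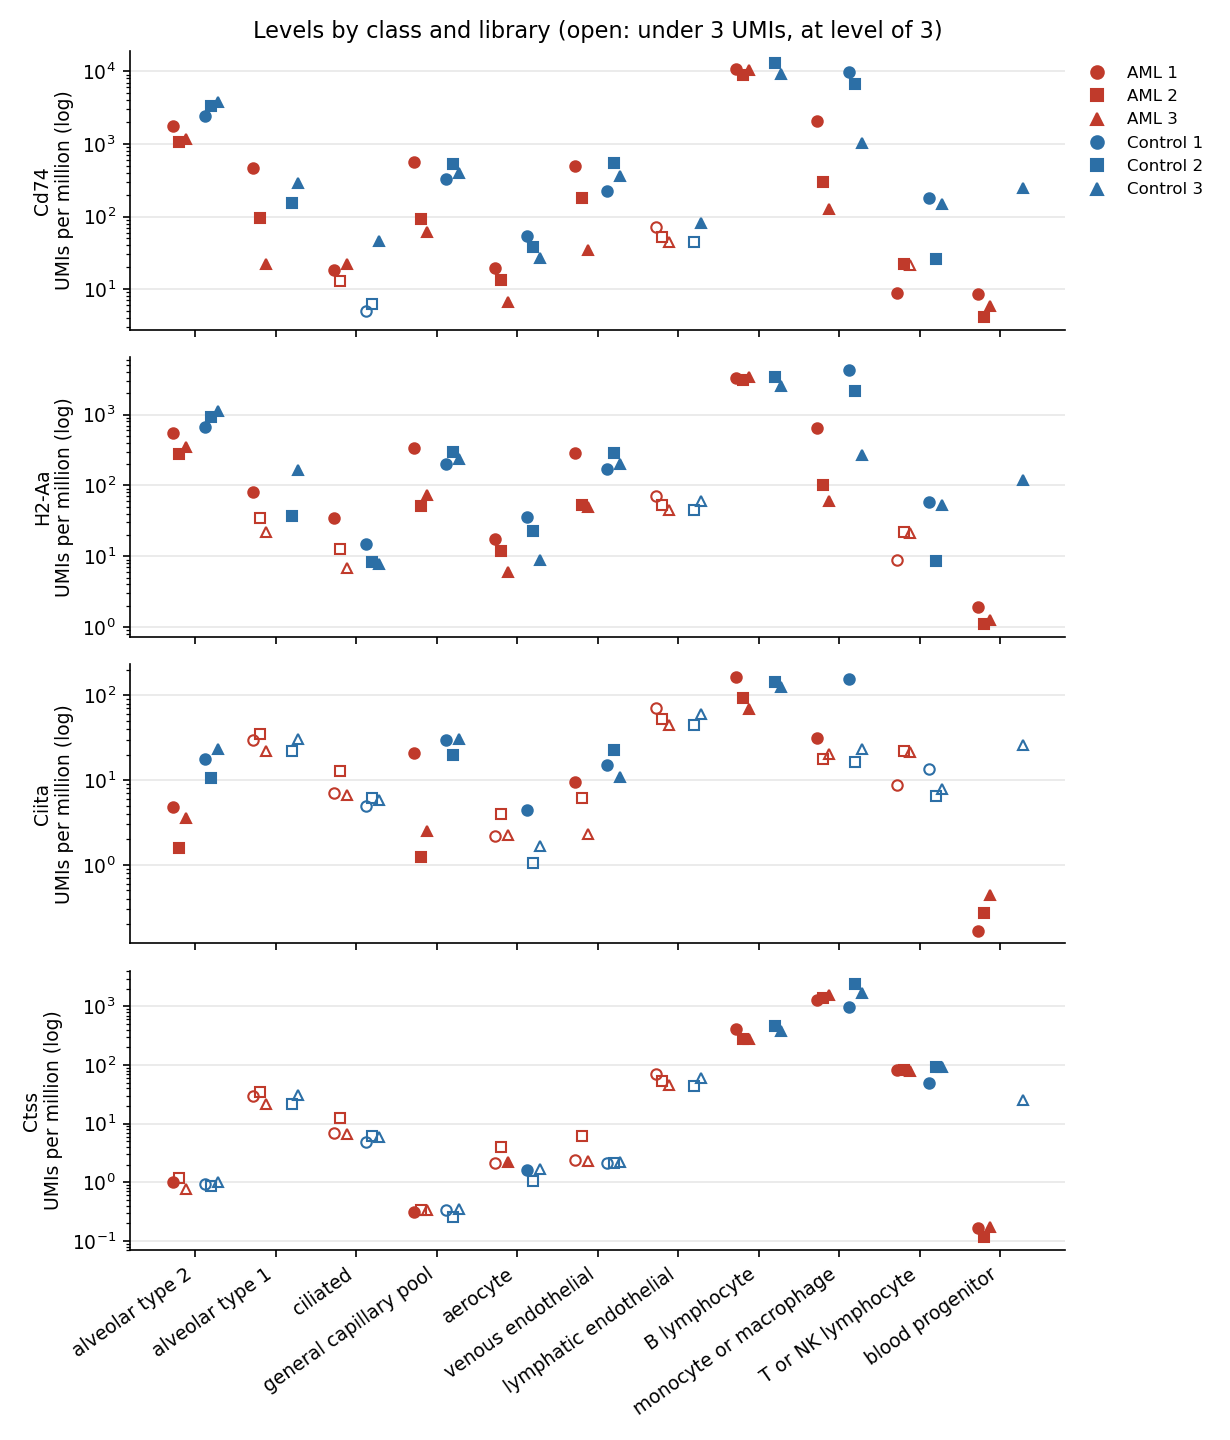
Cd74, H2-Aa, Ciita and Ctss by cell class and library (CPM, log axes), AML in red left of Control in blue; open points mark fewer than 3 UMIs and stand at the level of 3, and libraries with fewer than 10 cells of a class are left out. Cd74 spans from 4.09 CPM in blood progenitors to 12870 CPM in B lymphocytes, and Ctss is high only in monocytes or macrophages, B lymphocytes and T or NK lymphocytes among the classes drawn.

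In capillary endothelium the 3 AML libraries did not behave alike. The cells named general capillary came from clusters 0, 1 and 2, which held 49.3, 9.30 and 19.2% of the cells of clusters 0 to 5 in AML 1, 2 and 3 and 84.9, 79.8 and 82.6% in Control 1, 2 and 3. Clusters 3, 4 and 5 stayed unnamed by the naming rule, and the marker list that matched cluster 5 best was that of arterial endothelium, though none of its markers was among the 10 leading genes. Cluster 5 made up 5.99 to 7.78% of the pool in AML and 14.5 to 16.0% in Control libraries. A general capillary pool of clusters 0 to 5, built after the clusters were seen, was therefore used beside the named class. It held 2467, 2237 and 2864 cells in AML 1, 2 and 3 and 920, 2239 and 1739 cells in Control 1, 2 and 3. Its general capillary markers were alike at 9578 to 10723 CPM in AML and 9877 to 11053 CPM in Control, but its clusters were mixed differently. Cluster 3 made up 37.1, 4.07 and 49.2% of it in AML 1, 2 and 3 and 3.48 and 2.01% in Control 2 and 3. Cluster 4 made up 5.84, 80.6 and 24.0% in AML 1, 2 and 3 and 0.715% in Control 2. Control 1 held 6 cells of cluster 3 and 0 of cluster 4, and Control 3 held 5 of cluster 4. B lymphocyte markers in the pool, 8 of 8 with a UMI, summed to 0.423 to 2.61 CPM in AML and 0.695 to 1.02 CPM in Control. Dendritic markers, 4 of 7 with a UMI and Flt3, Cd209a and Siglech at 0, summed to 47.5 to 56.2 CPM in AML and 49.6 to 90.2 CPM in Control.

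In the pool Cd74 measured 569, 93.7 and 61.7 CPM in AML 1, 2 and 3 and 328, 527 and 401 CPM in Control 1, 2 and 3. AML 1 lay above every Control library, and AML 2 and AML 3 below every one. H2-Aa showed the same split, with 336, 51.2 and 72.7 CPM in AML and 202, 298 and 240 CPM in Control. So did H2-Ab1, with 398, 56.0 and 87.9 CPM in AML and 239, 327 and 337 CPM in Control. Ciita measured 21.2, 1.24 and 2.50 CPM in AML and 29.6, 19.6 and 30.1 CPM in Control, with AML 1 inside the Control range. H2-Eb1, H2-DMa and H2-DMb1 had AML 1 above all Controls and the other two AML libraries below them.

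Over all 6 libraries edgeR called 0 of 7 tested genes in the pool, and 0 had an unadjusted p under 0.05, where 1.55% of 11727 genes were called lower and 23% had an unadjusted p under 0.05. DESeq2 also called 0. The log2 change of Cd74 was -0.80 ± 0.82 (edgeR adjusted p = 0.595) and that of Ciita -1.65 ± 0.90 (edgeR adjusted p = 0.323). In the named class edgeR and DESeq2 again called 0 of 7, with 0 at an unadjusted p under 0.05 by edgeR, where edgeR called 0.75% of 11065 genes lower and 13.8% had an unadjusted p under 0.05. Without AML 1, with 2 AML libraries left, all 7 were called lower in both, where 6.07% of all genes in the pool and 1.23% in the named class were. In the pool the log2 change was then -2.43 ± 0.29 for Cd74 (edgeR adjusted p = 0.00185) and -3.81 ± 0.34 for Ciita (edgeR adjusted p = 0.000502). The other 5 lay between -2.54 for H2-Eb1 and -1.65 for H2-DMb1.

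The split between AML libraries appeared cluster by cluster. In cluster 3, led by Ntrk2 and Ankrd37, Cd74 was 743, 219 and 72.0 CPM in AML 1, 2 and 3 and 738 and 560 CPM in Control 2 and 3. In cluster 2 it was 426, 94.6 and 32.7 CPM in AML and 333, 454 and 343 CPM in Control. Cluster 5, led by Esm1, had less Cd74 than the others in each library, with 71.4, 13.6 and 3.84 CPM in AML and 73.0, 131 and 131 CPM in Control. In each of the 6 clusters AML 1 was the highest AML library, and AML 2 and AML 3 lay below the Control libraries. This counts only libraries with at least 10 cells of the cluster. It leaves out Control 1 in cluster 3 (6 cells) and AML 2 in cluster 0 (2 cells). In cluster 4, which made up 80.6% of the pool in AML 2, it leaves Control 2 alone, with 16 cells and 47 Cd74 UMIs.

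**Figure D4:**
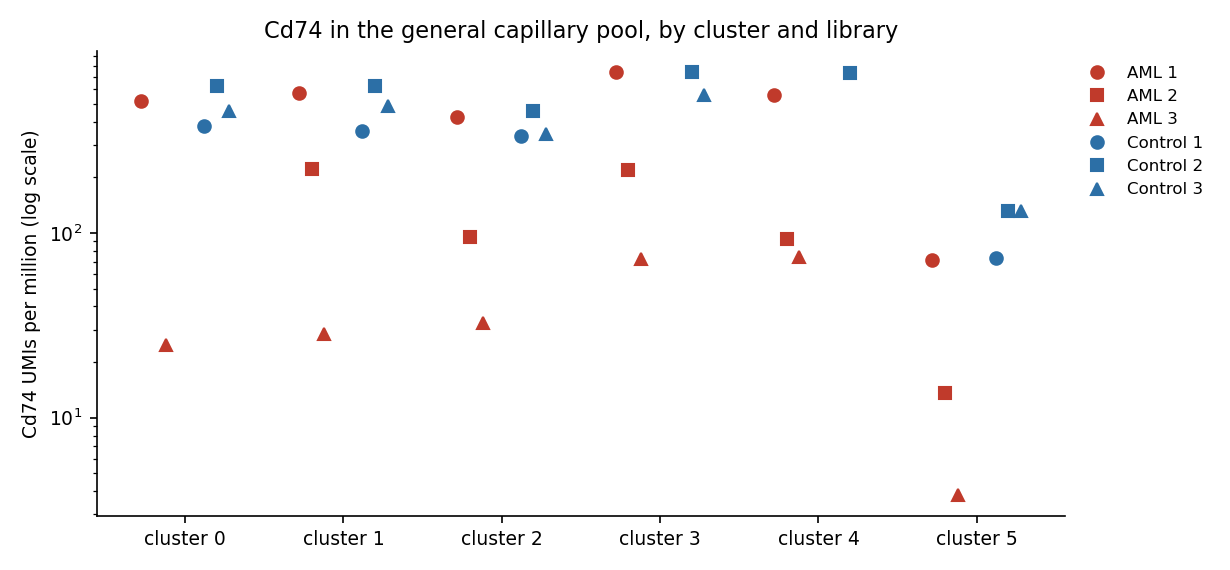
Cd74 in clusters 0 to 5 of the general capillary pool by library (CPM, log axis), AML in red left of Control in blue; libraries with fewer than 10 cells of a cluster are left out. AML 1 lies among or next to the Control libraries in each cluster, while AML 2 and AML 3 lie below them, as in cluster 2 (94.6 and 32.7 against 333 to 454 CPM).

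AML 1 stood highest of the AML libraries in other classes too. It led them for Cd74 in 10 of the 10 classes with at least 10 cells in each AML library and 30 UMIs of the gene, for H2-Aa and H2-Ab1 in 8 of 9, for H2-Eb1 in 6 of 7, for H2-DMa and H2-DMb1 in 5 of 6, for Ciita in 3 of 3 and for Ctss in 2 of 3. The exception was the B lymphocyte class for the chains, blood progenitors for H2-DMa and H2-DMb1, and monocytes or macrophages for Ctss. In AML 1 Cd74 was 19.5 CPM in aerocytes and 18.5 CPM in ciliated cells, against 569 CPM in its pool. The share of leukaemia and other blood cells was 18.4, 27.6 and 22.1% of cells in AML 1, 2 and 3 and 2.15, 4.08 and 3.89% in Control 1, 2 and 3. In the AML libraries this share includes the sorted cells added back as 20% of the pool. It is therefore no measure of leukaemia in the lung, and its part in the split was not tested.

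Beside class II, a class I regulator was lower in the AML pool. Nlrc5, the coactivator of class I genes and a relative of Ciita, fell, with 7.30, 5.43 and 3.06 CPM in AML 1, 2 and 3 and 20.0, 11.8 and 15.6 CPM in Control 1, 2 and 3 (log2 change -1.58 ± 0.31, edgeR adjusted p = 0.0342). AML 1 lay below every Control library for this gene, while its chains and Cd74 lay above them. It was the 1 called of 11 tested class I genes, where 2.54% of all genes tested in the pool were called in either direction. All 11 class I genes lay below 0, with a median log2 change of -0.54. Without Control 1 edgeR called 0 of 11927 genes in the pool, with 2109 at an unadjusted p under 0.05, so the call of Nlrc5 was lost.

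Aerocytes, the thin capillary cells of gas exchange, carried little class II. Cd74 fell in them, with 19.5, 13.1 and 6.69 CPM in AML 1, 2 and 3 and 53.4, 37.7 and 26.5 CPM in Control 1, 2 and 3 (log2 change -1.57 ± 0.35, edgeR adjusted p = 0.0218). The groups did not overlap, as for 12.1% of genes tested. Cd74 was the 1 called of 4 tested genes, where 2.16% of 8967 genes were called lower. The call was lost without AML 2, without AML 3 and with doublets kept, where the log2 change was -0.60. The AML values rest on 27, 10 and 9 UMIs, with estimated haematopoietic free RNA at 4.61, 0 and 36.6% of them. With that free RNA subtracted the log2 change of Cd74 was -1.58 (edgeR adjusted p = 0.0340). Mean Cd74 over the 6 libraries was 26.1 CPM in aerocytes, near the 25.9 CPM of alveolar fibroblasts. H2-Ab1 measured 13.7, 6.57 and 4.46 CPM in AML and 42.9, 19.9 and 9.95 CPM in Control (log2 change -1.49 ± 0.55, edgeR adjusted p = 0.186).

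In venous endothelial cells AML 2 and AML 3 lay below the Controls for Cd74 and AML 1 among them. Cd74 measured 493, 178 and 34.7 CPM in AML 1, 2 and 3 and 227, 549 and 362 CPM in Control 1, 2 and 3. edgeR called 0 of 7 genes and DESeq2 likewise 0, with 1 at an unadjusted p under 0.05 by edgeR, where 0.214% of 8867 genes were called lower and 12% had an unadjusted p under 0.05. That 1 was Ciita, with 9.56, 0 and 0.77 CPM in AML (12, 0 and 1 UMIs) and 15.1, 22.4 and 11.02 CPM in Control (log2 change -1.93 ± 0.66, edgeR adjusted p = 0.279). Its AML libraries all lay below the Controls, as for 10% of genes tested. Without AML 1, 6 of the 7 were called lower, all but Cd74, where 2.28% of genes were.

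A class with platelet markers carried the general capillary markers at 8490 to 10538 CPM in AML and 8802 to 10608 CPM in Control, as high as the pool itself, and is called the platelet-marked class here. Cd74 measured 178, 29.4 and 9.85 CPM in AML 1, 2 and 3 and 384, 423 and 487 CPM in Control 1, 2 and 3, from 27, 4 and 1 UMIs in AML and 144, 346 and 384 UMIs in Control, and fell by 2.45 on the log2 scale (SE 0.50, edgeR adjusted p = 0.0196). H2-Eb1 measured 99.0, 22.0 and 19.7 CPM in AML and 171, 241 and 213 CPM in Control, from 15, 3 and 2 UMIs in AML and 64, 197 and 168 UMIs in Control, and fell by 2.05 (SE 0.40, edgeR adjusted p = 0.00782). The values of Cd74 in AML 3 and of H2-Eb1 in AML 3 lie under the level of 3 UMIs, 29.5 CPM in that library. Estimated haematopoietic free RNA came to 11.53, 78.7 and 235% of the Cd74 UMIs in AML and 1.43 to 12.9% in Control. H2-Ab1 and H2-Aa fell by 1.55 and 1.60, with edgeR adjusted p of 0.0211 and 0.0270. These were 4 of 6 tested genes, where 1.25% of 4320 genes were called lower. For all 4 the AML libraries lay below the Controls, as for 11.2% of genes tested. Psmb9, a subunit of the immunoproteasome that cuts peptides for class I, measured 145, 66.0 and 49.2 CPM in AML and 171, 247 and 250 CPM in Control and fell by 1.31 (SE 0.33, edgeR adjusted p = 0.0366), the 1 called of 10 tested class I genes. Without AML 3 edgeR called no gene lower in the class, so this call was lost. The class held 27 to 34 cells per AML library and 38 to 162 per Control library. No member was called without AML 2, without AML 3, with doublets kept, or with haematopoietic free RNA subtracted. The log2 change of Cd74 was then -2.03, -2.01, -2.08 and -2.49, and that of H2-Eb1 -1.67, -1.74, -1.56 and -1.98, in the same order.

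Whether the change in alveolar type 2 cells differed from that in another class was tested directly, gene by gene, with libraries as blocks, against 11 other classes. Against B lymphocytes, in 5 libraries, the change of 5 of 8 genes differed, where 0.687% of 10188 genes did. The change in alveolar type 2 cells was the lower one by 1.54 on the log2 scale for H2-Aa, 1.40 for H2-Ab1, 1.29 for Cd74, 1.21 for H2-Eb1 and 1.79 for Ciita, with edgeR adjusted p of 2.84e-10, 1.02e-07, 2.84e-10, 1.89e-05 and 0.0325. Leaving out 1 library in turn, 2 to 5 members were called. Against the platelet-marked class Cd74 alone differed (1 of 7, where 2.25% of 10647 genes did), its fall in alveolar type 2 cells being smaller by 1.47 on the log2 scale (edgeR adjusted p = 6.01e-06).

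Against the general capillary pool no member differed by edgeR (0 of 7, and 0 at an unadjusted p under 0.05, where 2.49% of 12578 genes were called). Nor did one against the named general capillary class (0 of 7 and 0 unadjusted, where 1.81% of 11555 genes were called). The missing calls do not show that the classes changed alike, since the pool's own change had a standard error of 0.82 for Cd74. Without AML 1 the change of H2-Eb1 differed from the named class (1 of 7, where 4.44% of genes did) and those of H2-DMa and H2-DMb1 from the pool (2 of 7, where 6.18% did). The larger fall was then in the capillary cells. H2-Eb1 had a log2 change of -1.49 in alveolar type 2 cells and -2.66 in the named class. H2-DMa had -1.21 against -2.10 in the pool, and H2-DMb1 -1.03 against -1.65. By edgeR 5 of 7 members against the named class and 7 of 7 against the pool had an unadjusted p under 0.05. The share of all genes at that level was not counted. Against 7 further classes edgeR called 0 members, with 0 to 3 at an unadjusted p under 0.05. The share of all genes called was 2.04% against aerocytes, 0.45% against venous, 0.693% against ciliated, 0.147% against alveolar type 1, 0.0988% against lymphatic, 0.0572% against T or NK and 0% against monocyte or macrophage cells. DESeq2 was not run on these differences.

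**Figure D5:**
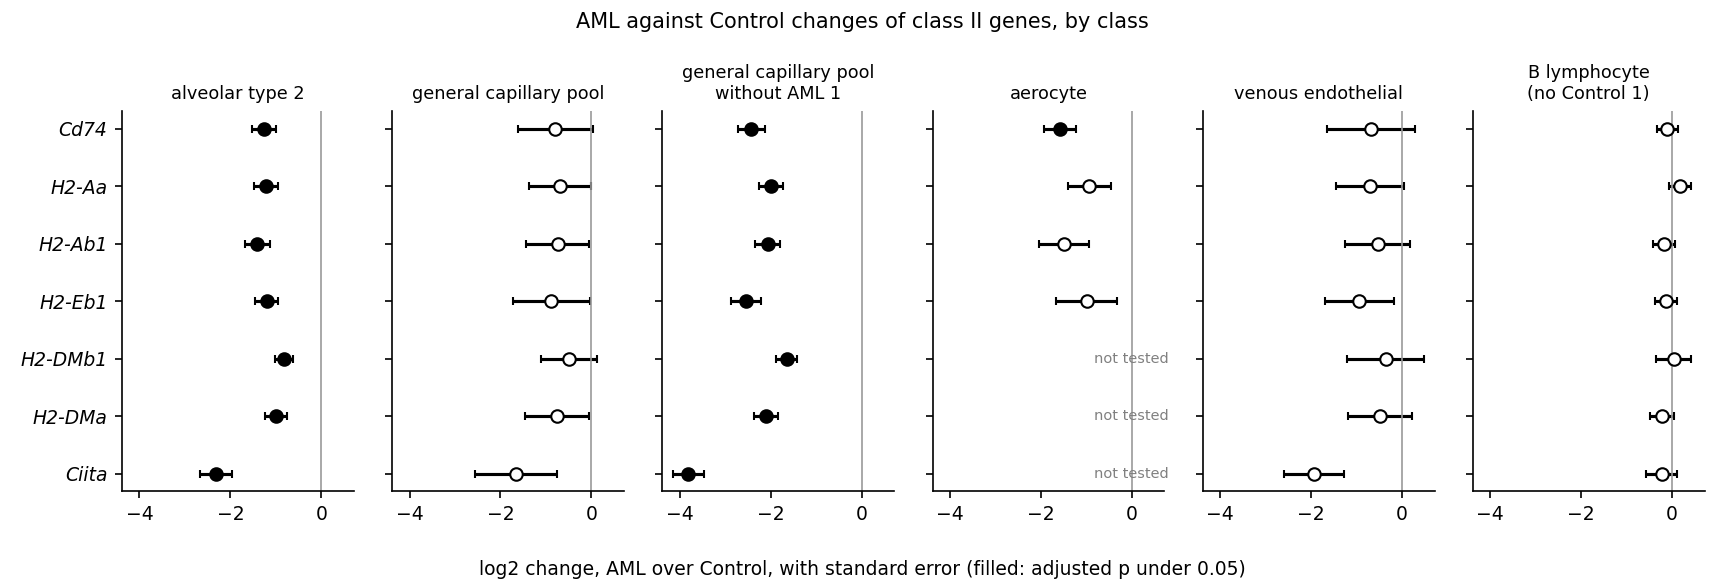
Log2 change of 7 genes, AML over Control, by cell class, with bars of 1 standard error and filled points where the edgeR adjusted p is under 0.05. All 7 are filled in alveolar type 2 cells (-2.32 to -0.81), none in the pool of all 6 libraries, all 7 in the pool without AML 1 (-3.81 to -1.65), and none in B lymphocytes.

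B lymphocytes had high class II in both groups. Cd74 measured 10952, 9041 and 10365 CPM in AML 1, 2 and 3 and 12870 and 9109 CPM in Control 2 and 3. H2-Aa measured 3271, 3123 and 3421 CPM in AML and 3376 and 2497 CPM in Control, and the groups overlapped for both. Ciita measured 165, 92.3 and 69.9 CPM in AML and 145 and 125 CPM in Control. edgeR and DESeq2 called 0 of 8 genes, with 0 at an unadjusted p under 0.05 by either tool, where edgeR called 0% of 3076 genes and 6.76% had an unadjusted p under 0.05. The class held 70 to 88 cells per AML library and 54 and 34 in Control 2 and 3.

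H2-Ob, the inhibitor chain, was abundant in B lymphocytes. It measured 413, 409 and 420 CPM in AML 1, 2 and 3 and 518 and 479 CPM in Control 2 and 3. Ctss measured 413, 283 and 280 CPM in AML and 465 and 386 CPM in Control, with overlap between the groups.

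Monocytes or macrophages, with 20 to 48 cells per AML library and 10 to 20 per Control library, spread widely between libraries. Cd74 measured 2081, 296 and 128 CPM in AML 1, 2 and 3 and 9838, 6630 and 1046 CPM in Control 1, 2 and 3, with AML 1 above Control 3. H2-Aa measured 650, 101 and 60.5 CPM in AML and 4242, 2174 and 271 CPM in Control. edgeR called 0 of 7 genes, with 2 at an unadjusted p under 0.05 (H2-DMa and H2-DMb1), where 0% of 3066 genes were called and 6.56% had an unadjusted p under 0.05. DESeq2 called H2-DMb1.

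Ctss in the same cells lay at 1271, 1399 and 1594 CPM in AML and 977, 2455 and 1673 CPM in Control, overlapping. The makeup of the class moved with the group. Neutrophil markers, 6 of 6 with a UMI, summed to 599 to 11610 CPM in AML and 54.2 to 70.2 CPM in Control. Dendritic markers, 6 of 7 with a UMI and Xcr1 at 0, summed to 0 to 71.3 CPM in AML and 21.6 to 626 CPM in Control. The part of either in the class II levels was not tested.

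T or NK lymphocytes carried Ctss and few UMIs of the chains. Ctss measured 81.9, 81.1 and 78.9 CPM in AML 1, 2 and 3 and 49.3, 93.7 and 94.4 CPM in Control 1, 2 and 3. Cd74 measured 8.78, 22.1 and 0 CPM in AML, where 3 UMIs were 22.1 and 21.5 CPM in AML 2 and 3, and 179, 26.2 and 149 CPM in Control. Macrophage markers in this class, 3 of 11 with a UMI, summed to 81.1 to 135 CPM in AML and to 6055, 224 and 254 CPM in Control 1, 2 and 3, and their part in these levels was not tested. Only Ctss and H2-DMa had enough UMIs to be tested, and edgeR and DESeq2 called neither, with 0 at an unadjusted p under 0.05 by edgeR, where 0.0262% of 3812 genes were called lower and 8.92% had an unadjusted p under 0.05.

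The remaining epithelium gave little to compare. Alveolar type 1 cells, the flat cells of the air surface, had 18 to 27 cells per AML library and 31 and 17 in Control 2 and 3. Cd74 measured 461, 93.9 and 21.8 CPM in AML 1, 2 and 3 and 154 and 286 CPM in Control 2 and 3. It was the 1 gene tested and was not called by edgeR or DESeq2, nor at an unadjusted p under 0.05, where 0% of 2077 genes were called and 6.4% had an unadjusted p under 0.05. In ciliated cells no member had enough UMIs to be tested, with 18.5, 4.25 and 22.4 CPM of Cd74 in AML and 1.65, 4.13 and 46.6 CPM in Control. Lymphatic endothelial cells, 77 in all, had no member that could be tested.

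The genes whose levels most resembled the mean of Cd74, H2-Aa, H2-Ab1 and H2-Eb1 over 60 sums of library and class (10 classes, 9434 genes compared) were H2-DMb1 (Pearson's r = 0.902) and H2-DMa (0.845). Outside class II the nearest were Nckap5 (0.839), Rab27a (0.834), Stmn1 (0.825), St6galnac2 (0.823) and Elovl1 (0.803), followed by Ptpn18, Rai14, Limd2, Sptlc2 and Apc (0.776 to 0.795). Sums of a library share its depth and those of a class its identity, so these are descriptions of likeness across classes.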

How the data were processed

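The deposited matrices hold whole UMI counts per gene and cell barcode, which the authors made with Cell Ranger (6.0.1 per the file headers, 7.0.0 per the submitters' processing notes) against mm10. No other step is given in the sources used here. Barcodes with at least 500 genes and at most 15% mitochondrial UMIs were kept (24640 of 28516), and 895 (3.63%) were removed as doublets, the highest Scrublet scores up to the expected rate. Cells were clustered with scanpy 1.11.5 and leidenalg 0.10.2 (2000 variable genes without the class II genes, 30 components, resolution 1), giving 29 clusters, of which 4 stayed unnamed. A cluster took a name from its markers when at least 3 were detected and its leading genes did not go against it.

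Counts were summed per library and class and tested across all genes with edgeR 4.0.16 (TMM, filterByExpr, robust quasi-likelihood fit, adjusted p under 0.05); DESeq2 1.42.0 was an alternative. Levels are TMM-scaled CPM. Differences between classes were tested as interaction terms with libraries as blocks. 7 classes had enough cells in all 6 libraries; 5 smaller ones were added after the cells were seen, 3 of them on 5 libraries, without Control 1. All comparisons share the same Control libraries. On simulated counts for alveolar type 2 cells (9921 genes, 200 changed) the edgeR test called 94% of 4-fold and 58% of 2-fold changes, with 1.30% of calls false. The simulation gave all genes the same dispersion (0.0253) and no library that stood apart. These rates therefore need not hold for the real libraries.

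By the rule for named genes, every member is given, with the genes of the pathway lists called in a tested class and the 10 genes most correlated with class II; Nfya, Ctsh and the other class II chains were added after their values were seen. One gene that the rule would name is not reported here. Members and lists were chosen with earlier results of these data known. Intervals and limits from a count of 0 cover counting error only.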

Additional observations from a re-analysis of the deposited data

Results flagged for a closer look

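A direct test of the difference found that the AML minus Control log2 change was lower in alveolar type 2 cells than in B lymphocytes (5 libraries), the difference being -1.54 for H2-Aa, -1.40 for H2-Ab1, -1.29 for Cd74, -1.21 for H2-Eb1 and -1.79 for Ciita. Cd74 alone differed against the platelet-marked class, by 1.47, the change in alveolar type 2 cells being the smaller fall. These differences rest on 3 AML libraries and on 2 Control libraries for B lymphocytes; the part of free RNA in them was not tested.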

How the results depend on the processing

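In alveolar type 2 cells each of the 7 tested genes stayed below 0 under all 17 alternatives, and Ciita was called in all 17. All 7 were called with DESeq2 size factors, DESeq2, no low-count filter, doublets kept, class II genes kept in the clustering, Leiden resolution 0.5 and B lymphocyte free RNA subtracted. The subtraction for B lymphocytes took UMIs almost only from AML libraries, so it could hardly have made a fall smaller. With 104 cells per library 5 were called. With haematopoietic free RNA subtracted 1 was called, and with the Scgb1a1 cluster added 1; this last alternative and that for B lymphocytes were chosen after seeing the data. Leaving out 1 library gave 1 to 7. The number of all genes called, 425, became 908 without the filter, 169 with equal cells, 1255 with haematopoietic free RNA subtracted, 122 with the Scgb1a1 cluster and 56 to 772 with 1 library left out. Library numbers did not pair the samples (correlations of deviations 0.0996, 0.0287 and 0.0959 in this class); a replicate block called all 7 genes and 697 in all.

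Members called with 1 library left out ranged from 0 to 7 in the named general capillary class and in the pool, 0 to 3 in aerocytes, 0 to 6 in venous cells, 0 to 4 in the platelet-marked class and 0 to 1 in T or NK cells. All genes called then ranged from 8 to 261 in the named class, 0 to 1252 in the pool and 57 to 358 in aerocytes. In venous cells they ranged from 0 to 344, in the platelet-marked class 1 to 126 and in T or NK cells 0 to 20. For differences between alveolar type 2 cells and the named class, the pool and B lymphocytes, members called ranged from 0 to 1, 0 to 2 and 2 to 5. All genes called ranged from 94 to 522, 46 to 793 and 13 to 77, in that order. Aerocytes gave 2 without the filter and 2 with the replicate block, where 610 of 15901 and 330 of 8967 genes were called. They gave 0 with doublets kept and 3 with class II genes kept in the clustering. In those settings 367 of 9297 and 332 of 9067 genes were called. Without the filter venous cells gave 1, T or NK cells 3 and monocytes or macrophages 2. All genes called there were 317 of 15815, 70 of 14161 and 111 of 13974. Monocytes or macrophages gave 1 with DESeq2 and 2 with the replicate block, where 7 and 5 of 3066 genes were called. The platelet-marked class gave 0 with doublets kept and 0 with haematopoietic free RNA subtracted, where 82 of 4556 and 41 of 4225 genes were called. Direction turned for H2-DMa in the named general capillary class at Leiden resolution 0.5 (log2 change 0.11) and for H2-DMb1 in venous cells, which ranged from -2.03 to 0.082 with 1 library left out. Where these changes come from was not tested. Classes of 18 to 48 cells per AML library limit what can be called in them.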

Other observations

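In B lymphocytes H2-DMb2, a second beta chain gene of H2-DM, measured 392, 217 and 301 CPM in AML 1, 2 and 3 and 488 and 442 CPM in Control 2 and 3. H2-Oa, the partner of H2-Ob, measured 151, 125 and 151 CPM in AML and 267 and 149 CPM in Control, where AML 1 and AML 3 lay between the Control libraries. In blood progenitors Ctss stood at 0.115 to 0.176 CPM and Ciita at 0.167 to 0.439 CPM in the AML libraries.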
